A study of Mus musculus with 96 samples.

Results

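Microglia are the resident phagocytes of the brain, and related macrophages live in the liver, where they are called Kupffer cells, and in skeletal muscle. These cells depend on signalling through the receptor Csf1r. Microglia also carry the fractalkine receptor Cx3cr1, which binds a ligand made by neurons, the purine receptor P2ry12, which guides their processes towards released nucleotides, and the surface protein Tmem119. Trem2 is a lipid-sensing receptor that signals through the adaptor Tyrobp, and Aif1, also known as Iba1, is an actin-binding protein widely used to stain these cells. C1qa, C1qb and C1qc encode the chains of C1q, the recognition unit of the classical complement pathway.

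These 9 genes were chosen by name, and all 9 were found among the 56748 genes of the count table. RNA of cortex, liver and muscle from 32 mice had been sequenced as 96 libraries. Mice ate freely (ad libitum, AL) or kept a daily fast of 16 h (intermittent fasting, IF) for 4 months, and IF was compared with AL within each tissue. Mice 1 to 8 were male AL mice, mice 9 to 16 male IF mice, mice 25 to 32 female AL mice and mice 33 to 40 female IF mice. The male mice were C57BL/6 animals that entered the diets at 6 weeks of age, and the strain and starting age of the females were not given in the sources used here. The diets were compared within each sex, whereas levels and ratios of tissues are given over both sexes and diets. Because each sex came as its own series of mice, sex and cohort cannot be told apart. Library totals ran from 26097314 to 49838004 counts.

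One library went against its label. The cortex library labelled as male AL mouse 1 held 213 CPM (the count of a gene scaled by the total count of its library) of Xist, the RNA made from the inactive X chromosome, and 0 CPM of the Y-linked gene Ddx3y. The other 15 male cortex libraries held at most 0.229 CPM of Xist and 25.1 to 37.3 CPM of Ddx3y, and the 16 female cortex libraries 185 to 337 CPM of Xist. In that library each of the 9 genes lay within the range of the other male cortex libraries, C1qa for instance at 79.1 CPM. It was left out, so 95 libraries were used, with 7 for male AL cortex and 8 for every other group. Summed neuron markers were 5556 to 7825 CPM in cortex and at most 16.4 CPM in liver and 2.30 CPM in muscle.

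Some other libraries stood apart. Ttr, the most abundant choroid plexus marker and also a hepatocyte gene, was above 1000 CPM in 5 of 31 cortex libraries, those of AL mouse 4 and of IF mice 11, 14, 34 and 36, and at most 563 CPM in the others. In liver, IF mouse 16 and AL mouse 28 had the highest summed Kupffer cell markers of their groups, with 673 and 937 CPM, and the summed level of the 9 genes there was 396 and 749 CPM. IF mouse 34 had the highest of the female IF group, with 494 and 329 CPM. Diet comparisons without these libraries are also given, whereas levels, ratios and correlations include them.

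In cortex all 9 genes were well expressed. Per length of the gene, as RPKM (CPM per 1000 bases of the length in the count table), the level of C1qa was 74.8 ± 12.1 (SD, n = 31 libraries), that of C1qb 69.1 ± 9.95 and that of C1qc 31.7 ± 4.85. The receptor and marker genes lay lower. The level of Csf1r was 14.4 ± 1.19 RPKM, of Tmem119 13.98 ± 1.53, of P2ry12 9.40 ± 1.11 and of Cx3cr1 8.81 ± 1.16. Last came Aif1 with 5.69 ± 1.11 RPKM and Trem2 with 5.02 ± 0.674. Neighbours in this order, namely C1qa and C1qb, Csf1r and Tmem119, P2ry12 and Cx3cr1, and Aif1 and Trem2, differed by less than their SD.

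Liver and muscle held C1q at high levels and little of the microglial receptors. In liver the level of C1qa was 55.4 ± 46.1 RPKM (SD, n = 32), of C1qb 30.8 ± 25.998, of C1qc 13.2 ± 12.5, of Csf1r 6.65 ± 3.20 and of Aif1 6.53 ± 7.68. Tmem119, Cx3cr1, P2ry12 and Trem2 had means of 0.297 to 0.494 RPKM in liver. In muscle the level of C1qa was 16.1 ± 7.27 RPKM (SD, n = 32), of C1qb 11.4 ± 4.30, of C1qc 6.50 ± 2.53, of Csf1r 1.57 ± 0.478, of Tmem119 0.851 ± 0.336 and of Aif1 0.631 ± 0.339. Trem2, P2ry12 and Cx3cr1 were barely detected there, with means of 0.0609 to 0.0994 RPKM and 0 to 47 counts in a library. The spread was large in liver, where each of C1qa, C1qb, C1qc, Csf1r and Aif1 differed from the gene with the next lower level by less than the larger SD of the pair, as C1qa and C1qb, and Tmem119 and Aif1, did in muscle.

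Set against the median CPM of liver, that of cortex was 30.1-fold for Cx3cr1, 34.9-fold for P2ry12, 31.5-fold for Tmem119 and 22.0-fold for Trem2. Against muscle the ratios were 165 for Cx3cr1, 129 for P2ry12, 58.9 for Trem2 and 17.4 for Tmem119. For these 4 genes the cortex libraries did not overlap with those of either other tissue. The ratios against liver and muscle were smaller for Csf1r, with 2.36 and 9.52, for Aif1, with 1.32 and 9.20, and for C1qa, with 1.82 and 5.33. For Csf1r, Aif1 and the 3 C1q genes the ranges of cortex and liver overlapped over all libraries and those of cortex and muscle did not. For Csf1r only liver AL mouse 28 and IF mouse 16, with 119 and 70.3 CPM, lay above the lowest cortex library, at 69.1 CPM. For C1qb only the same livers did so, with 160 and 90.8 CPM against 58.5 CPM. For C1qc only these and IF mouse 34 did so, with 138, 60.6 and 52.8 CPM against 46.4 CPM. Taken within each group of sex and diet, the ratio of cortex to liver ran from 1.09 in female IF to 2.91 in male AL mice for C1qa, from 0.718 to 1.999 in the same groups for Aif1, and from 2.03 in female AL to 3.09 in male AL mice for Csf1r. For the first 4 genes it was at least 13.45 in each group. The ratio of cortex to muscle ran from 107.6 in male AL to 351.1 in male IF mice for Cx3cr1. For P2ry12 it ran from 82.76 to 155.5 in the same groups. For Csf1r it ran from 7.03 in male AL to 14.07 in female IF mice, and for C1qa from 3.147 in male AL to 6.965 in female AL mice. In bulk tissue fewer macrophages and less RNA per cell cannot be told apart.

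The 3 C1q genes lie side by side on the minus strand of chromosome 4 (mouse build mm39), at chr4:136607440-136626114, a stretch of 18675 bases, and each has 3 exons in the GENCODE M39 annotation. They moved together from library to library. After removing the mean of each sex and diet group, log2 CPM of C1qa and C1qc had a Pearson r of 0.93 in cortex (n = 31), 0.96 in liver (n = 32) and 0.92 in muscle (n = 32). The other pairs of C1q genes had r of 0.89 to 0.95. The RPKM of C1qa over that of C1qb had a median of 1.07 in cortex, with a range of 0.949 to 1.25, of 1.76 in liver, with a range of 1.19 to 2.50, and of 1.43 in muscle, with a range of 1.03 to 1.70. The medians of the sex and diet groups were 1.04 to 1.07 in cortex, 1.504 to 1.93 in liver and 1.21 to 1.51 in muscle. The RPKM of C1qa over that of C1qc had medians of 2.38 in cortex, 4.28 in liver and 2.49 in muscle, and that of C1qb over C1qc 2.17, 2.38 and 1.76. For each pair the ranges of some tissues overlap, and the difference between tissues was not tested.

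Because these genes moved together, the promoters of C1qb and C1qc are shown, each from 250 bases before to 50 bases after the start of the gene. They come from RefSeq on build GRCm38.p6, where the C1qb window is chr4:136886151-136886450 and the C1qc window chr4:136892865-136893164, both on the minus strand. Of the 9 genes 6 had an entry, and C1qa, Tmem119 and Csf1r had none. Capitals mark GAGGAA or, for the other strand, its reverse complement TTCCTC, a core recognised by the myeloid factor PU.1 (Spi1). On either strand these letters occur in 28.3% of all 32851 promoters of this length and in 4 of the 6 entries, those of Aif1, Trem2, C1qb and C1qc. A match describes the sequence and does not show binding.
C1qb: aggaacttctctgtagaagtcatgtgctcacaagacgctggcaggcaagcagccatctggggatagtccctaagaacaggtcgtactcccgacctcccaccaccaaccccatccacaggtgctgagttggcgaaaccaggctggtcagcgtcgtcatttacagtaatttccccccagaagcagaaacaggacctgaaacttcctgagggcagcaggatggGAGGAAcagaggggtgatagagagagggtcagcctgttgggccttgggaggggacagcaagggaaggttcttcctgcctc
C1qc: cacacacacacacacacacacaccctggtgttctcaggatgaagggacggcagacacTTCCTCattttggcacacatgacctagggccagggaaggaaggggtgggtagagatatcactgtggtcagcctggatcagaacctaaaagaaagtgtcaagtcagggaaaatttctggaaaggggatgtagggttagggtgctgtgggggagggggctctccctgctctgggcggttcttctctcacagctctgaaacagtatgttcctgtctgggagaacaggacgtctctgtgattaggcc

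Reads of some of these genes may be shared with a neighbour. P2ry12 lies within Med12l, which runs on the other strand, and Csf1r overlaps Hmgxb3. In the annotation 1461 exonic bases of Csf1r, 703 of Aif1, 433 of Trem2, 294 of P2ry12, 78 of Cx3cr1 and 61 of C1qb are also exonic in another gene, and 0 of Tmem119, C1qa and C1qc. A directional library protocol was used, but the strand setting of the counting was not given in the sources used here, so reads of such neighbours cannot be told apart.

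**Figure D1:**
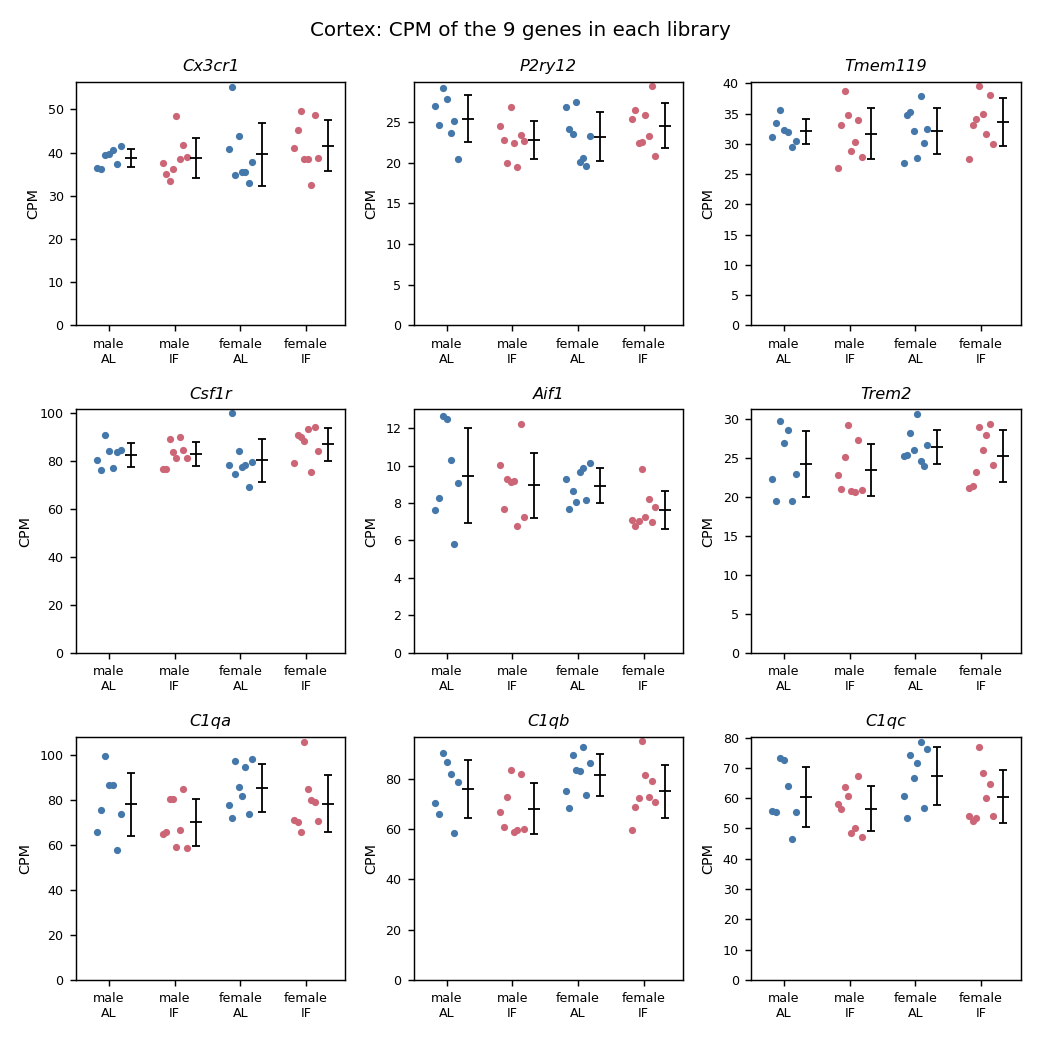
CPM of the 9 genes in cortex, with 1 point per library (7 male AL, 8 in each other group) and the mean ± SD of each group beside the points. For every gene the AL and IF libraries of a sex overlap.

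In the cortex of male mice none of the 9 genes passed the test for a difference between IF and AL. The count was 0 of 9 at an adjusted p (edgeR quasi-likelihood test, Benjamini-Hochberg over all genes tested) under 0.05, beside 7.21% of the 18462 genes tested, with 3.79% higher after fasting and 3.43% lower. An unadjusted p under 0.05 was reached by 0 of the 9, and DESeq2 also called 0. The count over all genes, 1332, was 295 with the library of AL mouse 1 added, 213 without the libraries of high Ttr and 499 without AL mouse 2 and IF mouse 10, and the count of members was 0 in each. The median log2 fold change (IF against AL) of the 9 was -0.07, beside -0.00 over all genes tested, and -0.02 without the libraries of high Ttr.

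Among the receptors, Cx3cr1 spanned 36.2 to 41.5 CPM in male AL cortex, with a median of 39.4, and 33.4 to 48.4 CPM in IF, with a median of 37.996. The IF libraries lay on both sides of the AL libraries, and the log2 fold change was 0.01, with a 95% confidence interval from -0.13 to 0.15. Csf1r had a log2 fold change of 0.02, with an interval from -0.10 to 0.14. P2ry12 spanned 20.5 to 29.2 CPM in AL, with a median of 25.1, and 19.5 to 26.8 CPM in IF, with a median of 22.7. Of 8 IF libraries 7 lay below the AL median, but the groups overlapped, and the log2 fold change of -0.15 ± 0.08 (SE) had an adjusted p of 0.292. The highest library was AL mouse 4, of high Ttr, and the lowest were the IF mice 14 and 11, also of high Ttr, and without these the log2 fold change was -0.05, with an adjusted p of 0.829. Tmem119 and Trem2 had log2 fold changes of -0.00 and -0.03. That of the stain marker Aif1, the gene with the lowest CPM of the 9, was -0.07, with the widest interval, from -0.40 to 0.27. Without the libraries of high Ttr the signs of Aif1 and Trem2 turned to 0.07 and 0.04, and Cx3cr1 and Csf1r had 0.05 and 0.01.

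Of the C1q genes, C1qa spanned 57.8 to 99.4 CPM in male AL cortex, with a median of 75.5, and 58.3 to 84.6 CPM in IF, with a median of 65.9. The lowest libraries of both groups were nearly equal, and the highest was AL mouse 4. The log2 fold changes of C1qa, C1qb and C1qc were -0.14, -0.15 and -0.08, with adjusted p of 0.493, 0.434 and 0.684, and -0.10, -0.08 and -0.03 without the libraries of high Ttr. The interval of C1qa ran from -0.38 to 0.10.

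In female cortex 0 of the 9 genes were called by edgeR, beside 0.0109% of 18403 genes tested, with 1 of the 9 at an unadjusted p under 0.05 and 0 by DESeq2. The 1 gene was Aif1, which spanned 7.68 to 10.1 CPM in AL, with a median of 8.96, and 6.75 to 9.81 CPM in IF, with a median of 7.16. Of 8 IF libraries 5 lay below every AL library, and the others lay among them. The log2 fold change of -0.24 ± 0.10 (SE) had an adjusted p of 0.405. C1qa spanned 71.9 to 98.2 CPM in AL, with a median of 83.6, and 65.7 to 106 CPM in IF, with a median of 74.9. Its highest library was IF mouse 36, which also had the most Ttr, and 4 of 8 IF libraries lay below every AL library. The log2 fold changes of C1qa, C1qb and C1qc were -0.12, -0.12 and -0.16, with adjusted p of 0.554 to 0.632, that of Trem2 was -0.07, and those of Cx3cr1, P2ry12, Tmem119 and Csf1r were 0.06 to 0.11. Without the libraries of high Ttr those of the C1q genes were -0.19, -0.17 and -0.19, that of Aif1 -0.28 and that of Tmem119 0.02.

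The difference between the sexes in the response of cortex was called for 0 of the 9 genes by edgeR, beside 2.03% of 19547 genes, with 0 at an unadjusted p under 0.05 and 0 by DESeq2. P2ry12 had 0.23 on the log2 scale for the female less the male response, with an interval from -0.01 to 0.47, and Aif1 had -0.16. The other 7 lay from -0.07 for C1qc to 0.10 for Csf1r, with 0.06 for Cx3cr1 and Tmem119, -0.03 for Trem2, 0.02 for C1qa and 0.03 for C1qb. Without the libraries of high Ttr P2ry12 had 0.12, Aif1 -0.35, C1qc -0.16, Trem2 -0.10, Cx3cr1 0.02 and Tmem119 0.04, and C1qa and C1qb turned to -0.09 and -0.08. The 397 genes behind that share were 81 with the library of AL mouse 1 added and 105 without the libraries of high Ttr.

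Other genes typical of microglia were measured in the same cortices. Of 22 such genes 2 were lower in male IF cortex and 0 higher, beside 7.21% of all genes. A negative log2 fold change was seen in 19, beside 51.1% of all genes tested, and the median was -0.17, or -0.10 without the libraries of high Ttr. In female cortex 7 of the 22 were negative, beside 49% of all genes tested, and the median was 0.01. The list was not tested as a group. Fcrls, an Fc receptor-like gene of microglia, fell from 27.6 ± 2.50 CPM (SD, n = 7) to 21.5 ± 2.43 CPM (SD, n = 8), a log2 fold change of -0.35 with 7 of 8 IF libraries below every AL library and an adjusted p of 0.0148. Ptprc, the leukocyte antigen CD45, had a log2 fold change of -0.74 and an adjusted p of 0.0383. Without the libraries of high Ttr their log2 fold changes were -0.34 and -0.70, with adjusted p of 0.0874 and 0.135, and Ptprc had 0.0577 with the library of AL mouse 1 added. With the replicate number as a block neither was called, with log2 fold changes of -0.33 and -0.63.

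Ligands and partners of the 9 genes were counted in male cortex beside the 7.21% of all genes called there, and their counts are no result about the lists as groups. Of 17 ligands, adaptors and regulators, such as the Cx3cr1 ligand Cx3cl1, edgeR called 0, with 4 at an unadjusted p under 0.05 and 2 by DESeq2. Of 15 classical complement genes tested 1 was lower, calreticulin (Calr), a chaperone that also binds C1q, with a log2 fold change of -0.24 and an adjusted p of 0.017. Of 15 genes of activated microglia tested 1 was lower, Spp1 (osteopontin), with -0.62 and an adjusted p of 0.0446. Neither was called without the libraries of high Ttr, where the log2 fold changes were -0.26 and -0.73, or with the library of AL mouse 1 added, where they were -0.19 and -0.55, or with the replicate number as a block, where they were -0.23 and -0.60. Spp1 was also not called without AL mouse 2 and IF mouse 10, with -0.63, with no filter on low counts or in 1 fit over both sexes.

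Markers of other cells were counted beside the same 7.21%, with 3.79% higher and 3.43% lower. Of 6 oligodendrocyte markers 5 were higher in male IF cortex, led by Mog with a log2 fold change of 0.53, Cldn11 with 0.54, their most abundant gene Mbp with 0.59 and Mobp with 0.66, and their sum was 4413 to 6838 CPM in AL and 5981 to 9955 CPM in IF. The astrocyte gene Aqp4 fell by 0.51 on the log2 scale and the endothelial gene Cldn5 fell by 0.43, each the 1 gene called of 6 markers, and Ighm was higher by 0.61, the 1 gene called of 3 lymphocyte markers tested. With the library of AL mouse 1 added Mbp, Mobp, Cldn5 and Ighm were not called, and Cldn5 also not without the libraries of high Ttr, with no filter on low counts or with the replicate number as a block. Markers of border macrophages, Kupffer cells, monocytes and neutrophils, neurons, choroid plexus, erythrocytes, hepatocytes and myofibres gave 0 calls by edgeR, with 1, for border macrophages, at an unadjusted p under 0.05 and 1, of the same list, by DESeq2. In female cortex edgeR called 0 of the 127 list genes tested, with 12 at an unadjusted p under 0.05 and 1 by DESeq2, and 5 of the 12 were choroid plexus markers. Their median log2 fold change of 2.40 rests on IF mice 34 and 36, whose sums were 1599 and 4385 CPM, and without these it was -0.59. The median sum was 21.8 CPM in AL and 12.1 CPM in IF. The part of these markers in the levels of the 9 genes was not tested.

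Likeness to the 9 genes was described by Pearson r over the 31 cortex libraries, after removing group means, between log2 CPM and the mean standardised profile of the 9. Olfml3 came first with r = 0.85, followed by Crybb1 with 0.84, Laptm5 with 0.82, Rps2 with 0.80, Spi1 with 0.79, S100a16, Ctss and Tyrobp with 0.78, and Rpl41 and Cnih2 with 0.77. Olfml3, Laptm5, Ctss, Spi1 and Tyrobp were on the lists of microglia genes and of partners, whereas Rps2 and Rpl41 encode ribosomal proteins. The median r over all 19538 genes was -0.08.

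The 9 genes did not form 1 block in cortex. C1qb had r = 0.83 with the mean of the other 8, C1qa 0.78, C1qc 0.76, Trem2 0.75, Aif1 0.62 and Tmem119 0.57, whereas Csf1r had 0.31, P2ry12 0.245 and Cx3cr1 0.0067. Trem2 and C1qb had r = 0.84 with each other and Cx3cr1 and C1qc -0.30 (n = 31 libraries that share tissue and sequencing). So C1q, Trem2 and Aif1 varied together, and the receptors Cx3cr1, P2ry12 and Csf1r had r of at most 0.22 with any of these. Among the receptors Cx3cr1 and Csf1r had r = 0.63 with each other, and Tmem119 had 0.43 with Csf1r and 0.57 to 0.64 with the C1q genes.

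In male liver C1qa was higher after fasting. It spanned 19.5 to 30.8 CPM in AL, with a median of 25.98, and 19.7 to 151 CPM in IF, with a median of 44.0. Of 8 IF libraries 7 lay above every AL library, and IF mouse 13 lay near the lowest of them. The log2 fold change was 0.99 ± 0.32 (SE), with an interval from 0.30 to 1.68 and an adjusted p of 0.021. C1qa was the 1 gene called of 9, beside 44.6% of the 16204 genes tested, with 23.5% higher and 21.1% lower. The difference from that share was not tested, so the count is no result about the 9 as a group.

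C1qb spanned 10.8 to 22.4 CPM in male AL liver, with a median of 19.3, and 10.1 to 90.8 CPM in IF, with a median of 22.2. C1qc spanned 9.74 to 16.7 CPM in AL, with a median of 13.4, and 8.33 to 60.6 CPM in IF, with a median of 15.01. In both genes IF mouse 16 was far above the rest. For C1qb IF mice 9, 10 and 11 also lay above every AL library, with 32.1, 39.9 and 22.7 CPM. For C1qc IF mice 10 and 12 did so, with 18.9 and 17.5 CPM. The remaining IF libraries lay among or below those of AL. The log2 fold changes of C1qb and C1qc, 0.80 ± 0.37 (SE) and 0.53 ± 0.34, had adjusted p of 0.0945 and 0.23. Without IF mouse 16 the log2 fold change was 0.59 for C1qa, with an adjusted p of 0.0129, 0.36 for C1qb and 0.03 for C1qc. The call of C1qa was lost in 1 fit over both sexes, with a log2 fold change of 0.96 and an adjusted p of 0.0528, without AL mouse 2 and IF mouse 10, with 0.91 and 0.066, and with the replicate number as a block, with 0.76 and 0.0766. Over its alternatives the log2 fold change ranged from 0.59 to 0.97 and the adjusted p from 0.00909 to 0.0766.

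Csf1r, on which Kupffer cells depend, spanned 21.6 to 46.8 CPM in male AL liver and 24.7 to 70.3 CPM in IF. Its groups overlapped, with IF mouse 16 highest, and the log2 fold change of 0.25 had an adjusted p of 0.302. Aif1 had a log2 fold change of 0.39, with an adjusted p of 0.269 and with IF mouse 16 at 17.5 CPM and the next IF library at 7.10 CPM. Without IF mouse 16 the log2 fold change was 0.05 for Csf1r and 0.01 for Aif1. Trem2 had medians of 0.739 CPM in AL and 1.13 CPM in IF and a log2 fold change of 0.91, with an adjusted p of 0.104. Cx3cr1, P2ry12 and Tmem119 had group means of 0.507 to 1.35 CPM, and log2 fold changes of -0.01, -0.63 and 0.05 that were not called, the interval of P2ry12 running from -1.83 to 0.56. The SD of these genes between libraries was 1.93 to 4.08 times that from counting alone (Poisson). Without IF mouse 16 P2ry12 had -1.07. The median over the 9 was 0.39, beside 0.06 over all genes tested, and 0.05 without IF mouse 16.

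**Figure D2:**
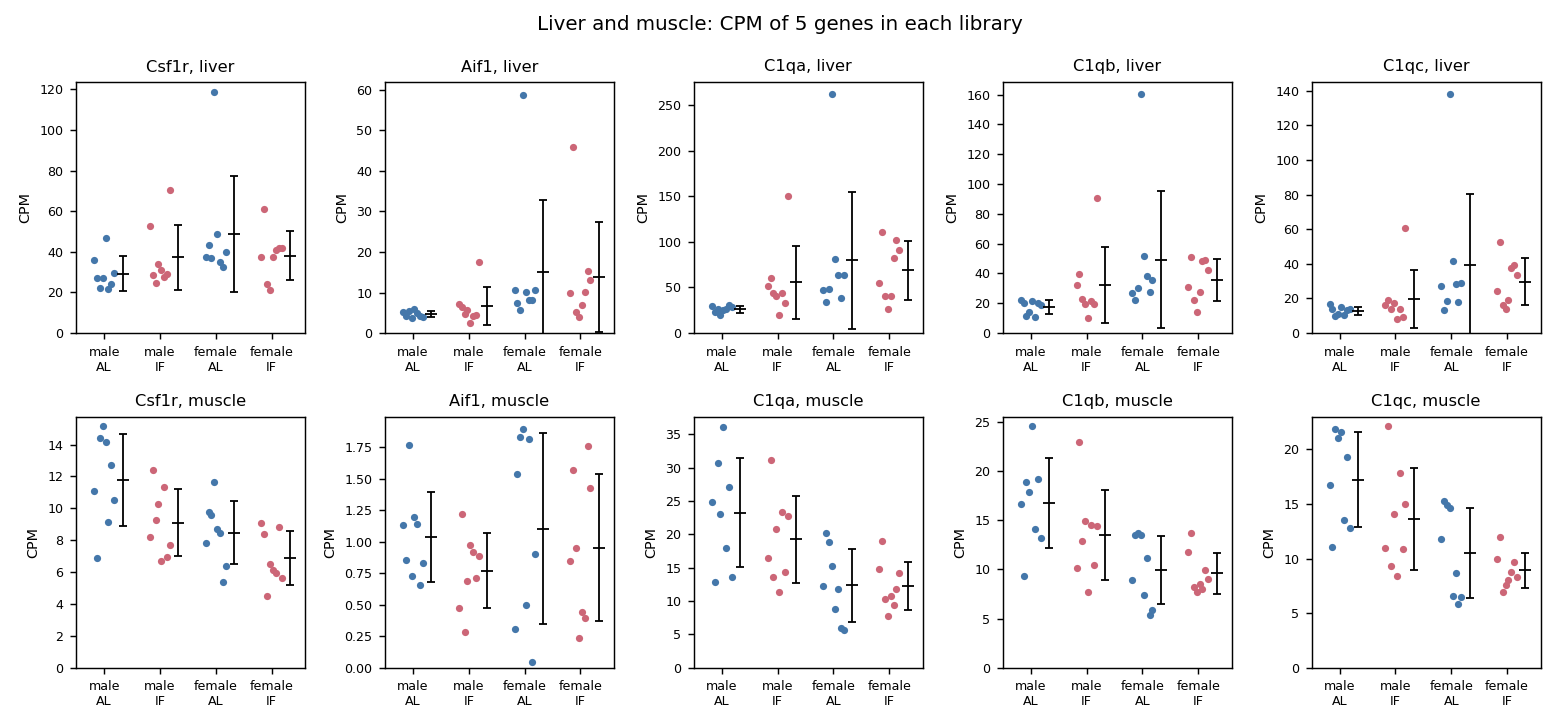
CPM of Csf1r, Aif1, C1qa, C1qb and C1qc in liver (top) and muscle (bottom), with 1 point per library (8 in each group), the mean ± SD beside the points and axes from 0. In liver single libraries, those of IF mouse 16 and AL mouse 28 with C1qa at 151 and 262 CPM, lie far above their groups.

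Lists of marker genes were counted in the same livers beside the 44.6% of all genes called there, and their counts are no result about the lists as groups. Of 9 Kupffer cell markers tested 3 were higher in male IF liver and 0 lower, and their sum was 139 to 256 CPM in AL, with a median of 160, and 168 to 673 CPM in IF, with a median of 215. The lectin Clec1b had a log2 fold change of 1.17 and an adjusted p of 0.000113, the scavenger receptor Marco 1.69 and 0.0438, and Clec4f, their most abundant gene, 0.41 and 0.0468. Without IF mouse 16 Clec1b was still called, and Marco and Clec4f had log2 fold changes of 0.69 and 0.24, with adjusted p of 0.139 and 0.147. These 2 were also not called without AL mouse 2 and IF mouse 10, with no filter on low counts or in 1 fit over both sexes, nor Marco by DESeq2, with 0.62, or with the replicate number as a block, nor Clec4f with RLE size factors. Border macrophage markers gave 3 calls of 7 tested, all higher, Stab1 with 0.91, Mrc1 with 0.66 and Pf4 with 0.86, the last lost without IF mouse 16, in 1 fit over both sexes and with the block. Stab1 and Mrc1 are also genes of the liver's sinusoidal endothelium, and 3 of 6 endothelial markers were higher, Kdr with 1.07, Tek with 0.54 and Flt1 with 0.40, with a sum of 55.9 to 83.2 CPM in AL and 86.4 to 152 CPM in IF. Flt1 was not called by DESeq2, with RLE size factors or with no filter, and neither Flt1 nor Tek in 1 fit over both sexes.

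Other lists of related genes were counted beside the same 44.6%. Of 20 other microglia genes tested 4 were higher and 0 lower, Laptm5 with 1.87, Inpp5d with 0.82, Selplg with 0.96 and Fcgr3 with 0.95, the last 2 lost without IF mouse 16 and Selplg also with the replicate number as a block. Of 17 ligands, adaptors and regulators 6 were higher and 1 lower. The Csf1r ligand Il34 rose from 1.40 ± 0.486 to 3.64 ± 1.07 CPM (SD, n = 8 each), with no overlap between the groups. Tgfbr2 had a log2 fold change of 0.65 and Smad3 of -0.54. Of 16 activated microglia genes tested 7 were higher and 0 lower, led by Timp2 with 1.33, Apoe, which hepatocytes also make, with 0.82, Ctsl with 0.71 and Ccl6 with 2.09.

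C1q acts with further complement proteins, most of them made by hepatocytes. Of 16 classical complement genes 2 were higher and 4 lower in male IF liver, beside 23.5% higher and 21.1% lower over all genes. C3, the central component, rose from 1799 ± 348 to 3686 ± 494 CPM (SD, n = 8 each), and C1ra, a protease that binds C1q, had a log2 fold change of 0.33. Its partner C1s1 fell by 0.47 on the log2 scale and Calr fell by 1.498. The higher C1qa thus stood beside a higher C1ra and a lower C1s1.

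Markers of blood and of other cells were counted in the same way, beside 44.6%. Of 5 erythrocyte markers 3 were higher, Hbb-bs with 3.17, Hbb-bt with 2.67 and Hba-a1, their most abundant gene, with 1.70, their sum was 362 to 956 CPM in AL and 667 to 6879 CPM in IF, and none was at 0. Monocyte and neutrophil markers gave 0 calls of 5 tested by edgeR, with 1 at an unadjusted p under 0.05 and 0 by DESeq2, and their sum was 4.55 to 12.98 CPM in AL and up to 29.9 CPM in IF mouse 16. Of 6 hepatocyte markers 2 were lower, Apoa1 with -0.48 and Fgb with -0.33. Of 10 lymphocyte markers 1 was lower, Cd4, whereas 6 had positive log2 fold changes. Fgb was not called in 1 fit over both sexes or without AL mouse 2 and IF mouse 10, nor Cd4 with the replicate number as a block. Genes used as brain markers gave 1 call of 2 for neurons, Syt1 with 0.61, 4 of 5 for astrocytes, Gja1 with 1.12, Aldoc with 0.69, Aldh1l1 with 0.31 and Aqp4 with -0.90, and 2 of 3 for oligodendrocytes, among them Mbp with 1.47. Aldh1l1 was not called with no filter, in 1 fit over both sexes, with the block or without AL mouse 2 and IF mouse 10, nor Aqp4 in 1 fit. Choroid plexus and myofibre markers gave 0 calls of 2 and 0 of 1 by edgeR, with 0 at an unadjusted p under 0.05 and 0 by DESeq2. The part of blood or of macrophage content in the higher C1qa was not tested.

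In female liver 0 of the 9 genes were called by edgeR, beside 0% of 15938 genes tested, with 0 of the 9 at an unadjusted p under 0.05 and 0 by DESeq2. C1qa spanned 33.5 to 262 CPM in AL, with a median of 55.7, and 26.1 to 111 CPM in IF, with a median of 68.6. AL mouse 28 was far above the next AL library, at 81.7 CPM, and the rest of the groups overlapped. The log2 fold change of C1qa was -0.17 ± 0.43 (SE), with an interval from -1.08 to 0.75, and 0.38 without AL mouse 28. The signs of C1qb, from -0.41 to 0.13, and C1qc, from -0.36 to 0.26, turned with the same library. Aif1 spanned 5.78 to 58.8 CPM in AL and 4.03 to 46.0 CPM in IF, with AL mouse 28 and IF mouse 34 highest. Its log2 fold change was -0.08, 0.69 without AL mouse 28 and 0.14 without both. Csf1r had -0.32, with an interval from -0.85 to 0.21, and -0.01 without AL mouse 28, which held it at 119 CPM, against 48.6 CPM in the next AL library. Cx3cr1, P2ry12, Tmem119 and Trem2 had -0.01, -0.42, 0.25 and 0.49, and 0.36, 0.00, 0.29 and 0.62 without AL mouse 28. Of the 123 genes of other lists tested in female liver edgeR called 0, with 7 at an unadjusted p under 0.05 and 0 by DESeq2.

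The difference between the sexes in the response of liver was called for 0 of the 9 genes by edgeR, beside 23.7% of 17658 genes, with 1 at an unadjusted p under 0.05, C1qb, and 0 by DESeq2. C1qa had -1.12 for the female less the male response, with an interval from -2.26 to 0.02 and an adjusted p of 0.151, and C1qb had -1.17, with 0.136. Without IF mouse 16 and AL mouse 28 these were -0.19 and -0.21, C1qc turned from -0.85 to 0.25 and Aif1 from -0.44 to 0.70, and Csf1r went from -0.54 to -0.04. Cx3cr1, P2ry12, Tmem119 and Trem2 had 0.04, 0.25, 0.22 and -0.38, and without the 2 libraries 0.42, 1.10, 0.26 and -0.16. The higher C1qa of males was therefore not shown to differ from the response of females.

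Across the 32 liver libraries the genes most like the 9 were Fcer1g, Lyz2 and Lgmn with r = 0.93, Cyba with 0.92 and Axl with 0.90. Of 10 Kupffer cell markers 6 were among the 200 most alike of 17649 genes, with a median r of 0.72 over the list, and the median was 0.12 for erythrocyte markers. Within the 9, C1qb had r = 0.93 with the mean of the other 8, Csf1r 0.85 and Aif1 0.83, so Csf1r and Aif1 varied with C1q over all these livers. All these r include AL mouse 28 and IF mice 16 and 34, with C1qa at 262, 151 and 111 CPM. They were not computed without these libraries.

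In male muscle Csf1r was lower after fasting. It spanned 6.90 to 15.2 CPM in AL, with a median of 11.9, and 6.67 to 12.4 CPM in IF, with a median of 8.72. Of 8 IF libraries 7 lay below the AL median, and the groups overlapped, with AL mouse 2 the lowest of its group and IF mouse 10 the highest of its own. The log2 fold change was -0.44 ± 0.15 (SE), with an interval from -0.76 to -0.12 and an adjusted p of 0.0417. Csf1r was the 1 member called of the 7 that passed the filter on low counts, which Cx3cr1 and P2ry12 did not pass, beside 23.1% of 15025 genes tested, with 11.5% higher and 11.6% lower, so the count is no result about the 9 as a group. With no filter on low counts Csf1r had a log2 fold change of -0.44 and an adjusted p of 0.103, and with the replicate number as a block -0.44 and 0.137. Over its alternatives the log2 fold change ranged from -0.60 to -0.44 and the adjusted p from 0.00218 to 0.137. Among them was the fit without AL mouse 2 and IF mouse 10, a choice of libraries that by itself widens the difference.

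C1qb spanned 9.36 to 24.5 CPM in male AL muscle, with a median of 17.3, and 7.67 to 22.9 CPM in IF, with a median of 13.7. C1qc spanned 11.01 to 21.9 CPM in AL, with a median of 18.01, and 8.38 to 22.1 CPM in IF, with a median of 12.5. The groups overlapped in both genes, with AL mouse 2 the lowest of its group and IF mouse 10 the highest of its own. The log2 fold changes of -0.39 ± 0.20 (SE) and -0.42 ± 0.20 had adjusted p of 0.189 and 0.14. Without AL mouse 2 and IF mouse 10 both were -0.62, with adjusted p of 0.00587 and 0.0125, and with Csf1r 3 members were called. Leaving out these libraries widens the difference by the choice itself, so these calls are no support for it. C1qa, Tmem119, Aif1 and Trem2 had log2 fold changes of -0.35, -0.60, -0.50 and -0.33, and the median over the 7 was -0.42, beside 0.01 over all genes tested, and -0.62 without these mice.

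Genes on other macrophage lists were counted in the same muscles beside the 23.1% of all genes called there, with 11.6% lower, and no list was tested as a group. Of 19 other microglia genes tested 4 were lower and 0 higher, with a sum of 61.5 to 113 CPM in AL and 52.5 to 94.4 CPM in IF. Lyz2, lysozyme and their most abundant gene, fell from 40.2 ± 10.2 to 26.4 ± 5.97 CPM (SD, n = 8 each), Olfml3 fell by 0.83 on the log2 scale, Fcrls by 0.89 and Ctss by 0.56. Ctss was not called with no filter, in 1 fit over both sexes or with the replicate number as a block, nor Lyz2 with the block. Of 15 ligands, adaptors and regulators tested 5 were lower and 0 higher, led by the myeloid transcription factor gene Spi1 with -1.09, the Cx3cr1 ligand Cx3cl1 with -0.94, the Csf1r ligand Csf1 with -0.46 and the Trem2 adaptor Tyrobp with -0.84. Csf1r and its ligand Csf1 were both lower, but the call of Csf1r was lost with no filter or with the block. A link between the 2 was not tested. Of 10 border macrophage markers 2 were lower, Pf4 with -0.60 and Stab1 with -0.48, and 0 higher, with a sum of 97.9 to 158 CPM in AL and 93.7 to 137 CPM in IF, most of all from Cbr2. Stab1 was not called with no filter or with the block.

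Further lists were counted in male muscle beside the same 23.1%. Of 15 complement genes tested the inhibitors Cd55 with 0.58 and Cd59a with 0.28 were higher and Calr was lower with -0.21, and Cd59a was not called without AL mouse 2 and IF mouse 10. Of 16 activated microglia genes tested 3 were higher, among them Lpl, a lipase that muscle fibres make, with 0.80, and Ctsl with 0.32, and 3 lower, among them Cd63 with -0.23 and Csf1 with -0.46. The endothelial gene Kdr was lower with -0.54, the 1 call of 6, whereas 4 of the 6 had positive log2 fold changes, with a median of 0.13. The lymphocyte gene Cd3e was lower with -1.08, the 1 call of 6. Of 5 astrocyte markers 3 were higher, Slc1a3 with 2.15, Gja1 with 0.59 and Aldh1l1 with 0.51. Of 6 myofibre markers 2 were lower, Mb with -0.90 and Ckm with -0.19. Kdr, Cd3e and Aldh1l1 were not called with no filter, nor Mb with the replicate number as a block, nor Ckm in 1 fit over both sexes. Kupffer cell, monocyte and neutrophil, erythrocyte, neuron, oligodendrocyte and hepatocyte markers gave 0 calls by edgeR, with 0, 1, 0, 0, 1 and 1 at an unadjusted p under 0.05 and 0, 0, 0, 0, 1 and 1 by DESeq2, and no choroid plexus marker passed the filter. The part of these shifts in the lower Csf1r was not tested.

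In female muscle 0 of the 7 members that passed the filter were called by edgeR, beside 0.00653% of 15308 genes, with 0 at an unadjusted p under 0.05 and 0 by DESeq2. Csf1r spanned 5.36 to 11.7 CPM in AL, with a median of 8.59, and 4.49 to 9.08 CPM in IF, with a median of 6.33. Of 8 IF libraries 6 lay below the AL median, the groups overlapped, and the log2 fold change was -0.23, with an interval from -0.53 to 0.08. C1qa, C1qb and C1qc had 0.06, 0.03 and -0.17, and Tmem119, Aif1 and Trem2 -0.02, -0.14 and -0.03. Of the 120 genes of other lists tested edgeR called 0, with 16 at an unadjusted p under 0.05, 5 of them endothelial markers, and 2 by DESeq2.

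The difference between the sexes in the response of muscle was called for 0 of the 9 genes by edgeR, beside 14.2% of 16346 genes, with 0 at an unadjusted p under 0.05 and 0 by DESeq2. Csf1r had 0.23 for the female less the male response, with an interval from -0.21 to 0.68, so its lower level in males was not shown to differ from the response of females. The other 8 lay from 0.27 for C1qc to 0.59 for Tmem119, with 0.43 for C1qa and C1qb, 0.40 for Cx3cr1, 0.53 for P2ry12, 0.39 for Aif1 and 0.32 for Trem2.

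Across the 32 muscle libraries the genes most like the 9 were Ctsh with r = 0.89, Cfp, which encodes the complement regulator properdin, with 0.88, Ace with 0.86, Gsn with 0.85 and Tgfbi with 0.84. Within the 9, C1qc had r = 0.89 with the mean of the other 8, Csf1r 0.74 and P2ry12, at a few counts, 0.13.

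**Figure D3:**
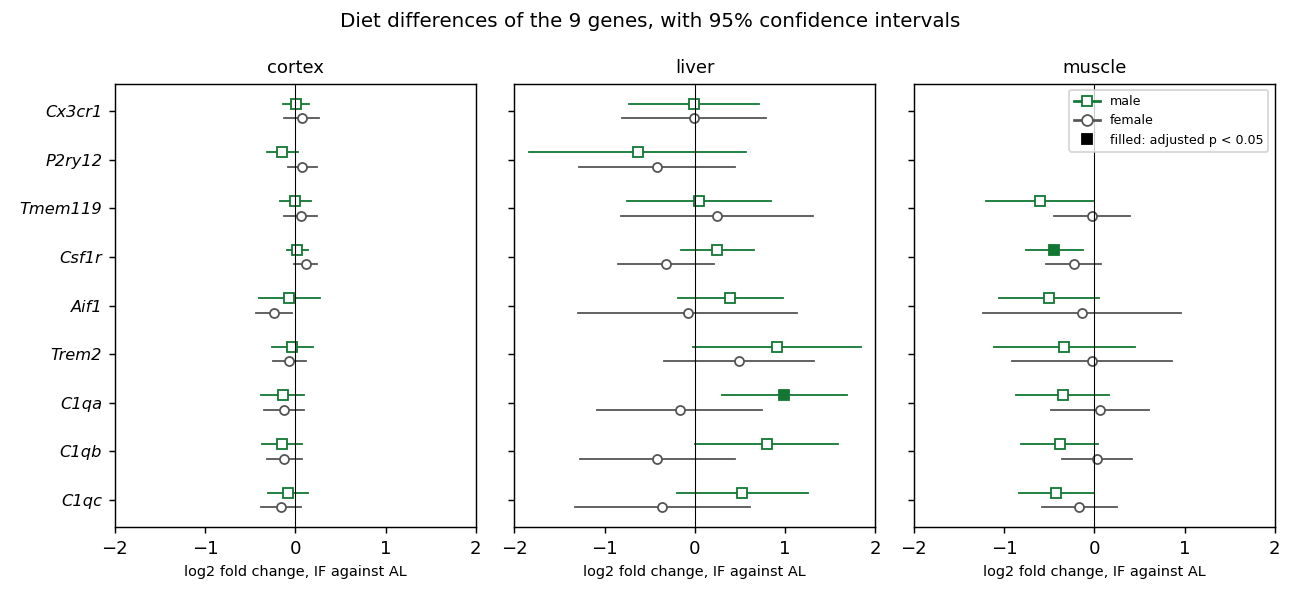
Log2 fold change of IF against AL for the 9 genes in cortex, liver and muscle, with 95% confidence intervals, the 2 sexes apart, and filled symbols for an adjusted p under 0.05. Only C1qa in male liver, at 0.99, and Csf1r in male muscle, at -0.44, are filled, and Cx3cr1 and P2ry12 were not tested in muscle.

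Side by side, the log2 fold change of C1qa in males was -0.14 in cortex, 0.99 in liver and -0.35 in muscle, and that of Csf1r was 0.02, 0.25 and -0.44. Without IF mouse 16 the liver values were 0.59 and 0.05. The tissues come from the same mice, and the difference between tissues in their response was not tested.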

How the data were processed

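RNA of cortex, liver and muscle was sequenced in 96 libraries, and the authors deposited raw read counts for 56748 genes, 1 column per library. The gene length in bases, the other deposited unit used, gave RPKM. The submitters' notes name CASAVA, HISAT2 and build mm39, and reads were counted with featureCounts. The strand setting of counting was not given in the sources used here. One cortex library, male AL mouse 1, was left out as the rule for the genes asks, and its Xist and Ddx3y went against its label. Totals were 26097314 to 49838004 counts per library, which limits the precision for genes of few counts. Levels are CPM from raw library totals; CPM from TMM-scaled totals had been planned for the diet comparisons and was run as the alternative.

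IF was compared with AL within each tissue and sex, and the sexes' responses by an interaction, in edgeR 4.0.16 (quasi-likelihood, robust, TMM) under R 4.3.3, after a filter on low counts (filterByExpr, minimum count 10, minimum total 15), with Benjamini-Hochberg adjustment over all genes tested and a threshold of 0.05. Intervals are 95% t intervals of the edgeR fit. Alternatives were DESeq2 1.42.0, RLE size factors, no filter beyond 1 count, 1 fit over both sexes, the replicate number as a block, AL mouse 1 added, AL mouse 2 and IF mouse 10 left out, and Spearman's rho for likeness. Other libraries that stood apart were left out in alternatives chosen after seeing the data. Likeness used log2 CPM with a prior count of 2. Tables and figures used Python 3.11.15, pandas 2.3.3 and matplotlib 3.10.9. The fits within each tissue and sex were also run on simulated data. These were drawn from the spread of the fit itself, without libraries that stand apart, so they say nothing about such libraries.

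The rule was to name all 9 genes in every comparison, with up to 4 genes of each of 16 other lists (157 genes) by smallest adjusted p under 0.05, the most abundant gene of a marker list, and the 10 (cortex) or 5 genes most alike. The genes behind counts of 5 or fewer may be named beyond that rule, chosen after their values were seen. Members and lists were chosen with earlier results of these data known. Some genes of the lists, among them the most abundant genes of some marker lists, are counted but not reported here by name.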

Additional observations from a re-analysis of the deposited data

Results flagged for a closer look

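Among 108 sets of 1 gene in 1 group of 7 or 8 libraries, 15 had a highest library far from the others. In independent, normally distributed values chance would give a library so far off, highest or lowest, in about 1 in 20 sets. The sets here are not independent, since 6 of the 15 were of liver AL mouse 28 and 4 of liver IF mouse 16, so this share is only a guide. Liver AL mouse 28 stood apart for P2ry12 with 3.03 CPM (next 1.13), Csf1r with 119 (48.6), Aif1 with 58.8 (10.7), C1qa with 262 (81.7), C1qb with 160.3 (51.9) and C1qc with 138 (41.8). Liver IF mouse 16 stood apart for Aif1 with 17.5 CPM (7.10), C1qa with 151 (60.7), C1qb with 90.8 (39.9) and C1qc with 60.6 (18.9), and liver IF mouse 34 for Aif1 with 46.0 (15.3). Tmem119 was far from the others in liver of IF mouse 9 with 2.89 CPM (1.54) and of AL mouse 30 with 2.82 (1.17), and in muscle of AL mouse 26 with 3.65 (2.48). P2ry12 was so in muscle of IF mouse 33 with 0.458 CPM (0.237).

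The response to IF differed between the sexes, by the interaction test at an adjusted p under 0.05, for 0 of the 9 genes (edgeR) and for genes of other lists, among them the following, given as the female less the male log2 fold change. Over all genes tested the share called was 2.03% in cortex, 23.7% in liver and 14.2% in muscle. In cortex the difference was 0.47 for Fcrls, 0.55 for Aqp4, -0.83 for Mog, -0.76 for Cldn11, -0.66 for Mag and -0.73 for Mbp. In liver the difference was -1.84 for Laptm5, -2.05 for Itgam, -0.84 for Inpp5d, -0.77 for Nrros, -0.94 for Il34, 1.59 for Calr, -0.79 for C3, -2.55 for Ccl6, -0.95 for Timp2, -0.63 for Apoe, -0.98 for Stab1, -0.89 for Mrc1, -1.44 for Pf4, -1.47 for Clec1b, -0.72 for Syt1, -1.27 for Gja1, -1.38 for Mbp, -1.25 for Kdr, -3.59 for Hbb-bs, -3.01 for Hbb-bt and 0.83 for Apoa1. In muscle the difference was 0.94 for Spi1, -0.56 for Cd55, 0.22 for Calr, -0.41 for Ctsl, -0.97 for Lpl, 0.30 for Cd63, -2.39 for Slc1a3, -0.79 for Gja1, -0.80 for Aldh1l1, -0.69 for Tek, -0.52 for Pecam1, -0.88 for Cldn5, 0.40 for Ckm and 0.29 for Acta1. In cortex Fcrls, Aqp4, Mag and Mbp were not called without the libraries of high Ttr, nor Aqp4, Mag and Mbp with AL mouse 1 added, and in liver Apoe, Inpp5d, Itgam, Mbp, Nrros and Pf4 were not called without IF mouse 16 and AL mouse 28. With no filter on low counts Mbp in cortex, Il34 in liver and Spi1, Calr, Cd63, Aldh1l1 and Cldn5 in muscle were not called.

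In the cortex library of AL mouse 1, which was left out, Xist was at 213 CPM, against at most 0.229 CPM in the other male cortex libraries.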

How the results depend on the processing

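In the 2 comparisons with a member called, 7 of the 13 counts of members called under the alternatives stayed within 1.5 times and 6 moved. In the 7 others the count was 0 under all 40 alternatives (edgeR, and DESeq2 as 1 of them), which says little about stability. Of the members' log2 fold changes, 423 kept their sign and their side of the threshold, 25 changed sign, 5 were no longer called and 2 became called. Levels from TMM-scaled totals stayed within their spread. Spearman's rho of the genes most alike was within 0.1 of Pearson's r, but the order changed: by rho 6 of the 10 named in cortex were among the first 10, without Rps2, Spi1, S100a16 and Ctss, and 4 of 5 among the first 5 in liver, without Cyba, and in muscle, without Tgfbi. Where no reason is given, the cause was not tested. For Cx3cr1, P2ry12 and Trem2, at few counts, the SD between libraries of a group is given against that from counting alone. It was 1.93 to 6.03 times as large in liver and 1.44 to 3.77 times in muscle. The libraries come from different mice, and the part of depth in what could be detected was not tested.

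Genes called with DESeq2 were 2259 in cortex male, 68 in cortex female, 713 for the sex difference in cortex, 6 in liver female and 97 in muscle female. In 1 fit over both sexes they were 2043 in cortex male, 4 in cortex female and 38 in muscle female, and in liver male 0 members were called. With no filter they were 220 for the sex difference in cortex and 5 in muscle female, and in muscle male 0 members were called. With AL mouse 1 added they were 295 in cortex male and 81 for the sex difference. Without AL mouse 2 and IF mouse 10, fewer samples, they were 499 in cortex male, and members called were 0 in liver male and 3 in muscle male. In muscle these were the lowest AL and the highest IF library of the called genes, so the choice itself widened the difference.

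With the replicate number as a block, genes called were 389 in cortex male and 0 in cortex female, and members called were 0 in liver male (C1qa, adjusted p 0.0766) and 0 in muscle male (Csf1r, adjusted p 0.137). In this block log2 fold changes turned to 0.0250 for Tmem119 in cortex male, 0.24 for Cx3cr1, 0.0747 for Aif1 and 0.0925 for C1qa in liver female, and 0.24 for Trem2 in muscle female. Mice of the same number in AL and IF are different animals, so the number does not pair the samples. The correlations of such pairs ran from -0.235 to 0.424. In female muscle 4 of 8 pairs were over 0.1, against 0 to 2 pairs in the other groups. In female liver 3 of 8 had their best match with their own number, against 0 to 1 elsewhere. The block fits more terms to the same libraries, and the part of this in the lost calls was not tested.

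These alternatives were chosen after seeing the data. Without the cortex libraries of high Ttr, genes called were 213 in cortex male, 1 in cortex female and 105 for the sex difference, and log2 fold changes turned to 0.0689 for Aif1 and 0.0377 for Trem2 in cortex male, and to -0.0885 for C1qa and -0.0842 for C1qb for the sex difference. In liver female without AL mouse 28 they turned to 0.36 for Cx3cr1, 0.0050 for P2ry12, 0.69 for Aif1, 0.38 for C1qa, 0.13 for C1qb and 0.26 for C1qc, and without AL mouse 28 and IF mouse 34 to 0.31, 0.0079, 0.14, 0.27, 0.0572 and 0.11. The sex difference in liver turned, without IF mouse 16 and AL mouse 28, to 0.70 for Aif1 and 0.25 for C1qc, and without these and IF mouse 34 to 0.17 and 0.11.

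Of the named genes of other lists none changed sign under the alternatives run. Called again were 4 of 11 in cortex male with AL mouse 1 added and 6 of 11 without the libraries of high Ttr, 30 of 38 in liver male in 1 fit over both sexes and 33 of 38 without IF mouse 16, and 18 of 23 in muscle male with no filter.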
